A study of Mus musculus with 12 samples.

Results

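SPIN1 encodes spindlin 1, a chromatin protein that reads trimethylated lysine 4 of histone H3 through its Tudor-like domains. RbFox1 is an RNA-binding protein that recognizes (U)GCAUG. In the nucleus it binds mainly introns and changes which exons are spliced in, and forms of it in the cytoplasm bind the 3′ ends of mature transcripts and affect how long these last. RbFox1 eCLIP gave 23 peaks on SPIN1 when RbFox1 was induced, out of 24831 human peaks in all. Of these 23 peaks, 21 lay in a run of 1439 nt close to the 3′ end of the gene, and the other 2 lay together near the 5′ end. In the run, the reads over a peak were 8.66-fold to 22.0-fold higher with RbFox1 than without it.

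The peaks were selected by position, as those on the + strand between 88388382 and 88478694 of chromosome 9 (hg38), the span given for the SPIN1 gene. The run from 88476461 to 88477899 was picked from the same peaks because they lie so closely there. Peak number, density and enrichment in the run are therefore descriptions, and no test was made on them. The names and roles of human exons were not analysed here, so the run is placed by its distance from the gene end and not by exon, intron or UTR.

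The cells were T-REx-293, a human embryonic kidney line with a doxycycline-inducible RbFox1 gene and, integrated, the TrkB-BAC minigene, a mouse Ntrk2 fragment. According to the study, the parental line expresses no RbFox1. The human peaks compare 2 immunoprecipitated libraries of the clone 77-5 with doxycycline for 48 h (+Dox) with 2 of the same clone without it (No Dox). The labels give the dose as 0.5 mg/ml, and the study's legends give the same number in μg/ml. The other libraries were 2 from the clone 32-1, whose minigene lacks Cluster 1 and Cluster 2, and 6 inputs that the labels tie to no condition. The fold enrichment and p of the SPIN1 peaks compare only the immunoprecipitated libraries of 77-5. The authors also calculated a fold enrichment over input for each called peak. Whether these values helped to select the listed peaks is not given in the sources used here.

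Each peak came with a log2 fold enrichment, which is the log2 ratio of normalized reads over the peak in +Dox to those in No Dox, and with a −log10 p for the same comparison. Both are the authors' values, given once per peak, and how the 2 replicates were merged is not stated in the sources used here. The p comes from a test on read counts, so it does not measure the spread between replicates. The list held 0 columns for single libraries and gave no reads per peak, so read depth and the spread between replicates are unknown for every value below. The lowest log2 fold enrichment and the lowest −log10 p in the list are both 3 when rounded, so SPIN1 sites under these limits are not visible. The least enriched SPIN1 peak had 3.11, which lay above 8.30% of the list.

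Along SPIN1 the peaks were confined to 2 places in this list. The gene spans 90313 nt, and the run begins 97.5% of the way along it and ends 795 nt before its end. Thus 91.3% of the SPIN1 peaks fell on 1.59% of its length. The peaks covered 67.8% of the run (976 of 1439 nt), at 14.6 peaks per kb. Outside the run they covered 0.154% of the gene (137 of 88874 nt), at 0.0225 peaks per kb.

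**Figure D1:**
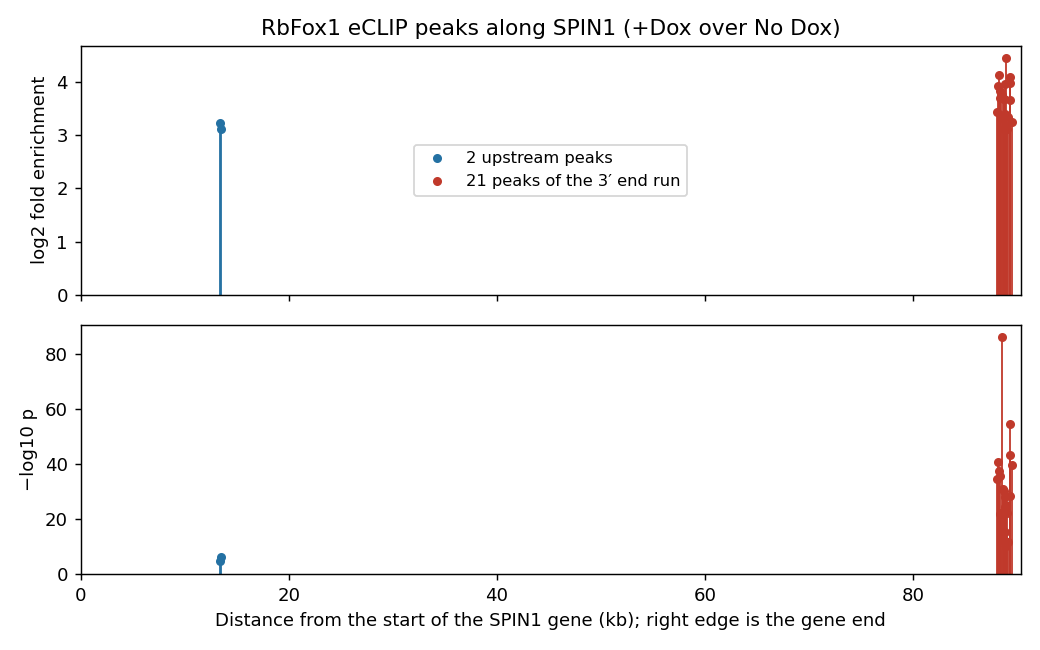
Log2 fold enrichment (top) and −log10 p (bottom) of the 23 SPIN1 peaks against the distance from the start of the gene in kb, with each point at the start of a peak. The 2 upstream peaks (blue) sit just over 13 kb from the gene start with a −log10 p of at most 6.09, and the 21 peaks of the run (red) crowd the far end, where −log10 p reaches 86.1.

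No other peak lay close to SPIN1 in this list, though the usual distance between groups of peaks was not measured. No peak lay on the antisense strand within the gene (0 peaks), and the closest antisense peak was 627241 nt beyond the gene end. On the + strand, the last peak before the gene was 734776 nt upstream and the first peak after it 3940789 nt downstream. Only + strand peaks were counted as SPIN1 peaks, so their shared strand is not a result, and no neighbouring run adjoined them.

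The run was made of 10 separate stretches, within which peaks abut with no base between them. Of the 20 borders between neighbouring peaks of the run, 11 had no gap, and the largest gap was 167 nt. Abutting peaks share reads at their borders and come from the same transcript and libraries, so they are not independent sites. Joined in this way, the 21 peaks of the run are 10 regions.

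The first stretch, from 88476461 to 88476651, held 3 peaks whose log2 fold enrichment went from 3.43 through 3.93 to 4.13 in the 5′ to 3′ direction. Their −log10 p was 34.6, 40.7 and 37.5. Enrichment in this stretch was highest at its 3′ side, in the peak at 88476591 to 88476651. After 28 nt a single peak followed at 88476680 to 88476728, with a log2 fold enrichment of 3.84 and a −log10 p of 21.8.

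The longest stretch covered 327 nt, from 88476733 to 88477059, with 4 peaks. Their log2 fold enrichments were 3.71, 3.34, 3.75 and 3.32. The third of them, at 88476903 to 88477017, had the highest −log10 p of all SPIN1 peaks, at 86.1, and with 115 nt it was also the widest. Its 3 neighbours in the stretch had −log10 p of 35.6, 22.4 and 31.1. Thus the highest −log10 p of the gene fell in a stretch where no peak reached a log2 fold enrichment of 4.

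The middle of the run, from 88477129 to 88477362, broke into short stretches and held the most enriched peak of the gene beside peaks of low enrichment. A stretch of 3 peaks at 88477129 to 88477212 had log2 fold enrichments of 3.69, 3.67 and 3.39. The single peak at 88477216 to 88477243 had 3.12, among the lowest of the run. Only 8 nt further on, 2 abutting peaks of 36 nt each had 3.96 and 4.46. The second of these, at 88477288 to 88477323, was the most enriched SPIN1 peak, at 22.0-fold, and 16 nt after it a peak at 88477340 to 88477362 was back at 3.17.

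The 3′ part of the run was sparser. The 2 peaks at 88477442 to 88477485 had log2 fold enrichments of 3.11, the lowest of the run, and 3.35. After the gap of 167 nt, a stretch of 3 peaks from 88477653 to 88477741 had 3.67, 4.10 and 3.99, with −log10 p of 28.5, 54.4 and 43.3. The last peak, at 88477831 to 88477899, had a low log2 fold enrichment of 3.24 with a high −log10 p of 39.8. High enrichment thus recurred at 3 places of the run, near its start, past its middle and towards its end, with lower peaks between them.

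**Figure D2:**
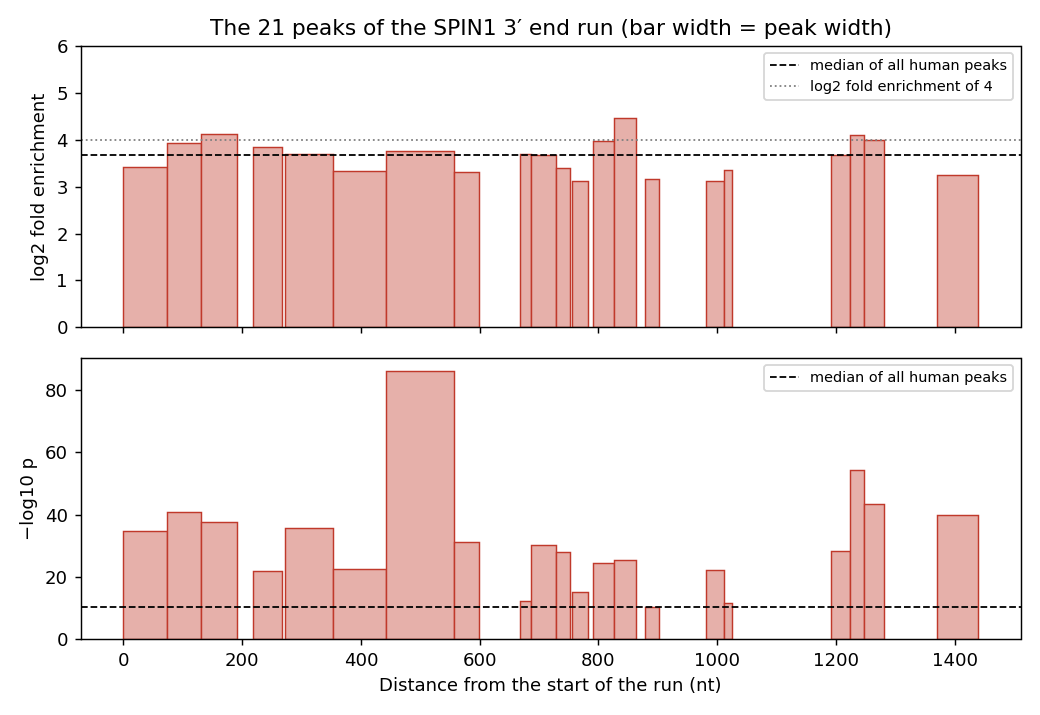
Log2 fold enrichment (top) and −log10 p (bottom) of the 21 peaks of the run against the distance from its start in nt, with each bar as wide as its peak. The dashed line is the median of all human peaks. The bars pass a log2 fold enrichment of 4 (dotted) at 3 places, while all 21 pass the list's median −log10 p of 10.2.

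The order of the run's peaks by enrichment was not their order by p-value. The peak with the highest log2 fold enrichment, 4.46, ranked 13 of 21 by −log10 p, and the peak with the highest −log10 p, 86.1, ranked 8 of 21 by log2 fold enrichment. Over the 21 peaks, log2 fold enrichment and −log10 p had a Pearson's r of 0.358 and a Spearman's rho of 0.478. Width went with −log10 p (r = 0.632, rho = 0.533) more than with log2 fold enrichment (r = 0.048, rho = 0.162). These are descriptions over neighbouring peaks that share libraries and transcript, and with no read counts the part of depth in them was not tested.

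The 2 upstream peaks had a lower −log10 p than every peak of the run, while their log2 fold enrichments met its low end. They lay 13430 and 13520 nt after the gene start, at 88401812 to 88401860 and 88401902 to 88401989, with 41 nt between them, and 74471 nt without a peak separated them from the run. Their log2 fold enrichments were 3.23 and 3.11, or 9.35-fold and 8.63-fold. The median of the run was 3.67, which is 0.51 above the 3.17 of the pair. The ranges met, since 3 peaks of the run lay below the higher peak of the pair. The −log10 p of the pair was 4.75 and 6.09, above 15.5% and 25.8% of the human list. The lowest of the run, 10.2, was above 50.1% of the list, so in p-value the 2 places did not overlap. This p depends on read counts, and the read depth at the 2 places is unknown. With 2 peaks on one side and no value by library, these differences could not be set against replicate error.

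Set in the whole human list, the run had an ordinary enrichment, a high −log10 p and narrow peaks. Its median log2 fold enrichment of 3.67 lay above 49.8% of the 24831 human peaks, whose median was 3.68. Its median −log10 p of 28.5 lay above 85.4% of them, and 21 of the 21 peaks were above the list's median of 10.2. Its median width of 36 nt lay above 6.11%, against a median of 82 nt in the list, and 19 of the 21 were narrower than that. The list has 510 peaks at its highest −log10 p of 400, which cannot be ranked among themselves, and a further 31 peaks between that value and the 86.1 of SPIN1.

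Among peaks of like p-value, the median enrichment of the run was below the middle but not at the low end. The list held 2810 peaks with a −log10 p between the quartiles of the run, 22.3 and 37.5, and their median log2 fold enrichment was 3.93. The 11 peaks of the run in this range had a median of 3.67. The median of the whole run, also 3.67, lay above 35.6% of the 2810 peaks. At the same time these 2810 peaks had a median width of 86 nt, so they were wider than those of SPIN1. What lies behind the lower median at this p-value was not tested.

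Few SPIN1 peaks passed a stricter threshold on the same values, with log2 fold enrichment no lower than 4 and p no higher than 1e-05. It was passed by 3 of the 23 SPIN1 peaks (13.0%) and by 29.0% of all human peaks. The 3 were the peaks at 88476591, 88477288 and 88477685, one in each of the 3 more enriched places. Neither upstream peak passed.

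**Figure D3:**
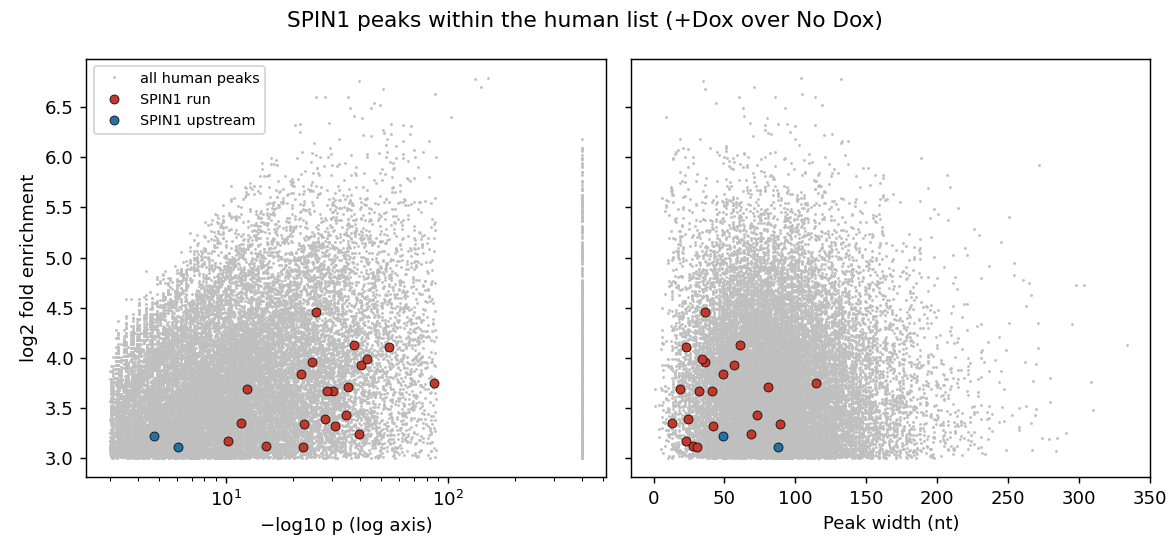
Log2 fold enrichment against −log10 p on a log axis (left) and against peak width in nt (right), for the human list (grey), the SPIN1 run (red) and the 2 upstream SPIN1 peaks (blue). The run lies to the right in −log10 p, between 10.2 and 86.1, to the left in width, and around the middle of the list in enrichment.

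By number of deposited peaks, the SPIN1 run was among the largest groups of RbFox1 peaks in these cells. The run was picked because its peaks lie so closely, so a high place by number follows from that choice. Many of its peaks abut, and no rank was taken after joining abutting peaks. Peaks of one strand were joined into a group wherever no more than 500 nt lay between them. The list formed 9787 such groups, and 7 of them held more peaks than the 21 of SPIN1. A total of 3 groups, SPIN1 included, held 21. At the stricter threshold the place of the run was lost, since its largest group held 2 peaks and ranked 833 of 3347, a rank shared by 664 groups of that size. On chromosome 9 the run ranked 2 of 389 groups. The 2 upstream peaks formed 1 of 1935 groups of 2 peaks. The median log2 fold enrichment of the pair, 3.17, was above that of 8.48% of these, and its median −log10 p of 5.42 was above that of 25.7%.

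Compared with other groups of at least 10 peaks, of which there were 189 with SPIN1, the run was crowded and modest in enrichment. Its median log2 fold enrichment exceeded that of 34 groups and fell below that of 154, with a median of 4.07 over the groups. In median −log10 p it exceeded 88 of the groups and so stood near the middle, the median over the groups being 30.1. Its peaks per kb exceeded those of 142 groups, at 14.6 against a median of 12.2, while only 12 groups had a lower median width. Crowding was also what the run was picked for. Its covered share of 67.8% was below the median of 75.9% and above that of 59 groups.

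There were 14 other groups with 18 to 24 peaks, and all 14 had a higher median log2 fold enrichment than SPIN1, from 3.72 to 5.53 with a median of 4.27. Only 1 of the 14 had a lower most enriched peak than the 4.46 of SPIN1. The nearest in median was a group of 20 peaks on chromosome 22 (− strand, 19036540 to 19038144), with a median of 3.72 and a median −log10 p of 33.5. Its most enriched peak had 5.43, higher than any of SPIN1. Next came 19 peaks on chromosome 15 (− strand, 90966161 to 90966969) with a median of 3.84, and 23 peaks on chromosome 12 (+ strand, 110346320 to 110347843) also with 3.84. These 2 groups had a median −log10 p of 86.2 and 400, against 28.5 in SPIN1. The genes under these groups were not analysed here, and without values by library the differences have no test.

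**Figure D4:**
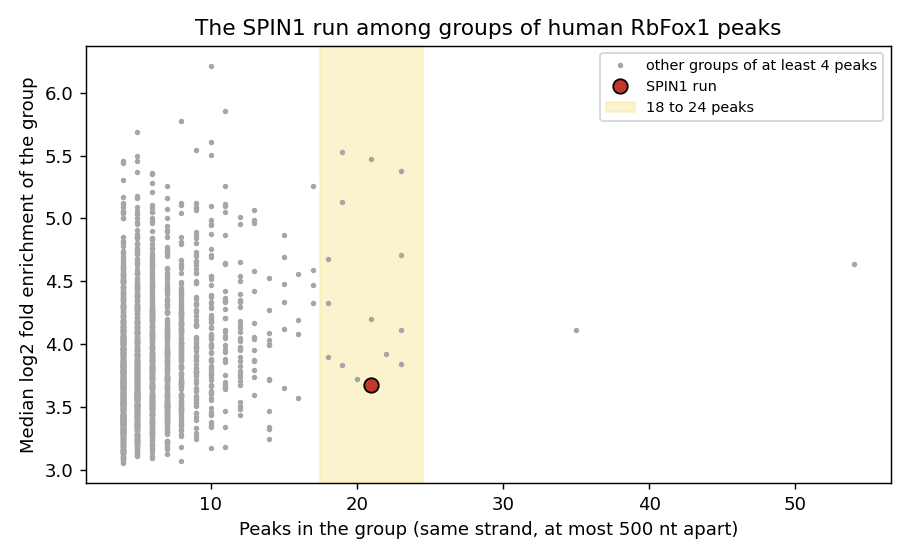
Median log2 fold enrichment of each group of at least 4 human peaks against the number of peaks in it, with the SPIN1 run as the large red point and the band from 18 to 24 peaks shaded. SPIN1, at 21 peaks and 3.67, is the lowest point in the band, where the other 14 groups reach from 3.72 to 5.53.

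The same libraries also gave 7 peaks on the TrkB-BAC minigene, in a separate list made in the same way. Their log2 fold enrichments, from 3.14 to 4.13 with a median of 3.78, lay within the range of the SPIN1 run. They were also narrow for the human list, with a median of 44 nt against 36 nt in the run, and their −log10 p ran from 12.4 to 400.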

How the data were processed

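The eCLIP libraries were made from T-REx-293 clones. GEO's labels give the organism of the BAC, mouse, although the SPIN1 peaks are human. The authors trimmed molecular identifiers and adapters (UMI-tools, cutadapt), removed repeat reads, aligned the rest to hg38 plus the minigene (STAR), collapsed PCR duplicates by identifier and ran the peak caller CLIPper. The deposited lists are marked IDR (irreproducible discovery rate, a measure of agreement between replicates), but its settings, and the treatment of reads that map to several places, are not given in the sources used here. SPIN1 has similar relatives in the genome, and whether reads are shared with them was not tested. The deposited −log10 p-value is the authors' Yates' chi-square p, or Fisher's exact p where reads were few. The deposited log2 fold enrichment is a ratio of reads normalized by the authors to each library.

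Python 3.11.15 with pandas 2.3.3, numpy 2.4.6, scipy 1.17.1 and matplotlib 3.10.9 was used, and positions count from 1. A peak belonged to SPIN1 with at least 1 nt of overlap. SPIN1, its run and the comparisons were chosen with earlier results of these data known. The grouping of peaks was tested on simulated data. The alternatives were a stricter threshold, joined or wholly inside peaks, other distances and weighting by width. The rule for named genes was SPIN1 with all its peaks, related chromatin genes and genes with a similar run; the last 2 kinds needed a human annotation, so similar runs are given by position. Columns for single libraries numbered 0. The list of the minigene in WT against deletion was not used. Motifs and sequences of the peaks were not analysed here.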

Additional observations from a re-analysis of the deposited data

How the results depend on the processing

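At the stricter threshold (log2 fold enrichment no lower than 4, p no higher than 1e-05), the SPIN1 peaks went from 23 to 3 and those of the run from 21 to 3, with a median log2 fold enrichment of 4.13. The run then ranked 833 by its largest group, in place of 8, and the pair outside it had no peak left, so the pair and its difference from the run had no value there. Joining abutting peaks left 12 SPIN1 regions, 10 of them in the run. Weighted by width, the mean log2 fold enrichment was 3.65 in the run and 3.15 outside it, a difference of 0.50 against the 0.51 of the medians. Requiring whole peaks inside the gene left all 23. With groups at most 100 nt apart, the run's largest group had 17 peaks and ranked 11, and at 1000 nt it had 21 and ranked 10.

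The motif count and the peaks of related genes were not run, since no human sequence or annotation was used. No paired analysis was possible because the list holds 1 value per peak, merged over replicates. Leaving out single replicates was likewise not run. Depth is unknown, and SPIN1 sites with few reads and unbound sites look alike in this list, as neither is on it.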
